A study of Homo sapiens with 3 samples.

Results

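The genes described here encode proteins of the spliceosome and the SR proteins that guide it, read out by RNA sequencing in the Hep3B line, a human hepatocellular carcinoma culture. Members are the rows of the deposited gene table whose Ensembl identifier carries a symbol beginning with SNRP, SF3A, SF3B, PRPF, LSM and a digit, SRSF or U2AF, together with TRA2A and TRA2B, with pseudogenes left out. This gave 65 of the 19869 genes in the table, and the rule uses no measured value. They fall into 19 small core subunits, 14 SR and SR-like proteins, 26 larger splicing factors (SF3A, SF3B, PRPF and U2AF genes) and 6 LSM genes whose products lie outside the U6 particle.

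The study compared 3 libraries, 1 per group, all from the same line. The control carries the title NT-Empty and the treatment label Fugene treatment, that is the transfection reagent; the labels used here do not say whether an empty plasmid or a non-targeting RNA was added. The HKR3 library came from cells transfected with pcDNA3.1-HKR3, an expression plasmid for the telomere-binding zinc finger protein HKR3, whose gene is now named ZBTB48. Since the labels do not say whether the control received a plasmid, plasmid transfection and HKR3 itself cannot be told apart. The words 'after HKR3' name that library only. The third library is labelled siTERT transfection, for a small interfering RNA against TERT, the catalytic subunit of telomerase. Levels are in FPKM, fragments per kilobase of transcript scaled to sequencing depth, and where 3 levels are given they stand in the order control, HKR3, siTERT label. ZBTB48 stood at 4.91, 2842 and 4.89 FPKM. TERT stood at 4.69, 4.25 and 5.37 FPKM, so the last library did not show less TERT than the control and is called by its label throughout. All 8 hepatocyte and hepatoma markers examined were present, with AFP at 4055 and ALB at 3317 FPKM in the control, whereas PTPRC and CD3E of leukocytes and CDH5 and VWF of endothelium were listed at 0 in each library. Because no group has a second library, the differences reported have no replicate check and no p-value.

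The spliceosome removes introns from newly made RNA. Its U1, U2, U4 and U5 particles each hold a small nuclear RNA wrapped by a ring of Sm proteins, while U6 carries a ring of the related LSM proteins. SF3A, SF3B and U2AF recognise the branch point and the end of the intron, PRPF proteins drive the later rearrangements, and SR proteins, with their arginine- and serine-rich tails, bind exons and recruit the other parts. Transcripts of SR genes are themselves spliced in alternative ways that lower or raise their own protein, a well-known feedback of this family.

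For 40 of the 62 members with a mean of at least 1 FPKM over the 3 libraries, RefSeq (GRCh38.p14) gave a promoter window of 300 bases whose start lay within 200 bases of the principal GENCODE v29 transcript. The window runs from 250 bases before the start to 50 after it. The letters CCGGAAG, the core bound by ETS factors, were found on either strand in 7 of 12 windows of small core genes, 1 of 10 of SR genes and 6 of 15 of the larger factors, beside 22.1% of the 7222 windows of all genes measured. In the same order of classes, CCAAT was found in 6 of 12, 1 of 10 and 5 of 15, beside 38.6% of all. GGGCGG, the GC box, was found in 7 of 12, 5 of 10 and 8 of 15, beside 74.5%. The TATA box TATAAA was found in 1 of 12, 1 of 10 and 0 of 15, beside 5.39%, and the E-box CACGTG in 0, 0 and 1, beside 10.7%. TTAGGG, the letters of the telomere repeat, was found in 1 of 12, 0 of 10 and 2 of 15 (PRPF38B and PRPF6), beside 8.79%. These are matches of letters in a window and not measured binding sites; motifs were allowed to overlap each other. The stretches of 110 bases before the start are printed for SNRPD2 and SNRPB, the highest small core genes in the control, and for SRSF11, the SR gene with the largest positive difference in the HKR3 library, to show a window with and without these letters. Capitals mark the ETS core, the GC box, CCAAT or the TATA box, on either strand. SNRPD2 is taken from chr19:45692317-45692426 on the minus strand, SNRPB from chr20:2470790-2470899 on the minus strand and SRSF11 from chr1:70205586-70205695 on the plus strand, all in GRCh38.p14.
SNRPD2: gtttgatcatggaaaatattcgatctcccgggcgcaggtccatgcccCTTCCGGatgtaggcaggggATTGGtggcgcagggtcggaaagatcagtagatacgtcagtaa
SNRPB: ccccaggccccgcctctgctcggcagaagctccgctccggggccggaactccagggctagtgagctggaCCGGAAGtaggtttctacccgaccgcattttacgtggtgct
SRSF11: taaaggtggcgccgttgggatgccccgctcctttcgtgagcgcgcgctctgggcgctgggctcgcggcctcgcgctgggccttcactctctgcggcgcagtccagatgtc

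FPKM is a level per length and can be compared between genes of one library. In the control, small core genes that passed the minimum had a median of 118 FPKM, SR genes 111, the larger factors 52.7 and the other LSM genes 46.2, beside a median of 12.7 FPKM over the 10974 genes that reached that mean. The highest members were SNRPD2 at 608, SNRPB at 435, PRPF19 at 401, LSM4 at 365 and SRSF2 at 289 FPKM. Within the Sm ring, which holds 1 copy of each subunit, the levels spanned from 114 FPKM for SNRPF to 608 FPKM for SNRPD2. In the U6 ring, which also holds 1 copy of each, they spanned from 27.7 FPKM for LSM3 to 365 FPKM for LSM4. Members under the minimum were SNRPN, listed at 0 in all libraries along with SNURF, with which it shares 35.7% of its sequence, LSM11 at 0.62 to 0.67 FPKM and PRPF40B at 0.52 to 0.69 FPKM. The genes together took 1.14% of the FPKM sum in the control, 1.08% after HKR3 and 1.07% under the siTERT label.

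**Figure D1:**
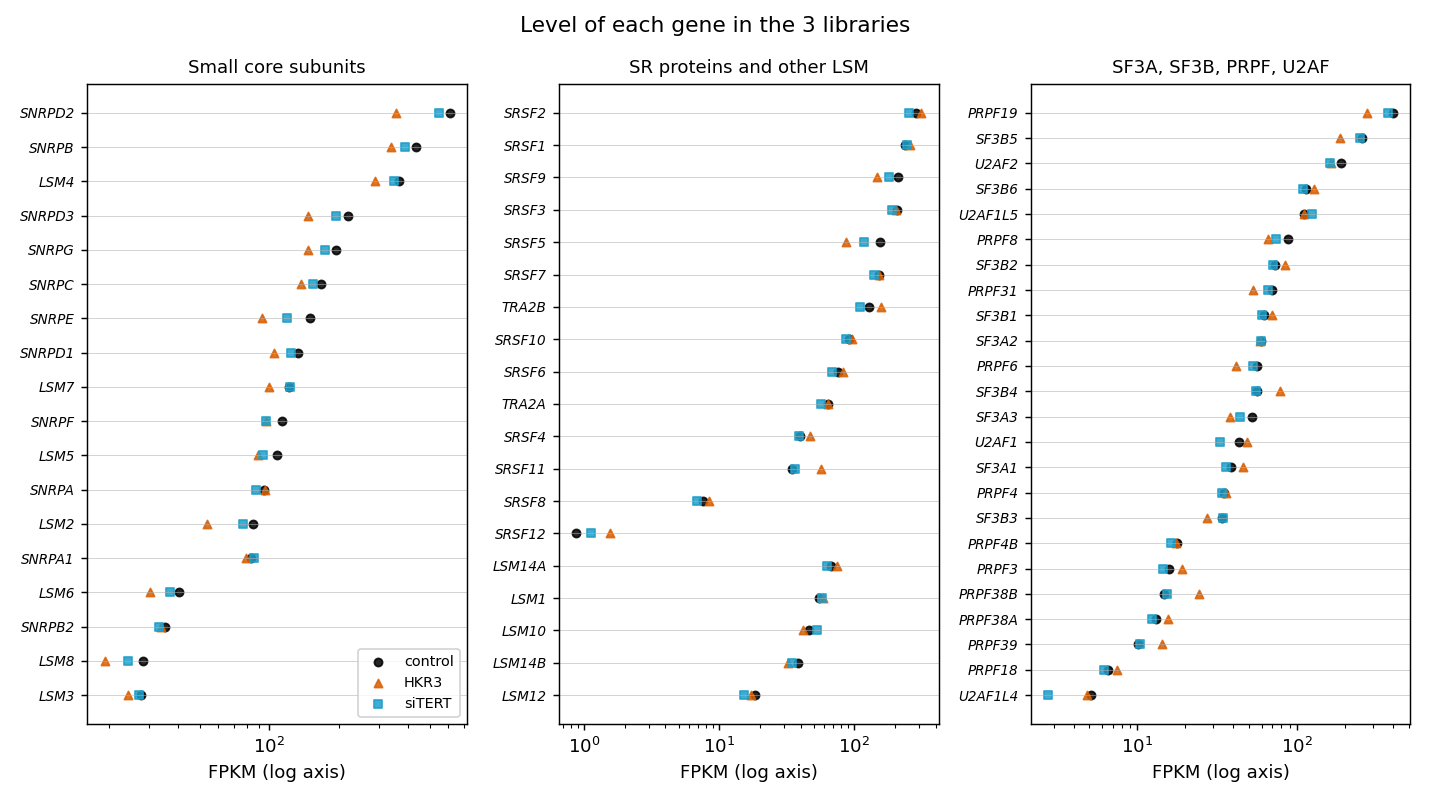
FPKM (log axis) of 61 of the 62 members with a mean of at least 1 FPKM, in the control (black circles), the HKR3 library (orange triangles) and the library labelled siTERT (blue squares), 1 library each. In the small core panel the triangles lie left of the circles for all genes but SNRPA; SRSF5 and SRSF9 show the same order among the SR genes, where most triangles lie at or right of the circles.

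The first comparison asks how these genes differed between HKR3-overexpressing cells and the control. Small core subunits were lower, SR proteins were mostly slightly higher, and the larger factors went both ways. Differences are given as log2(FPKM + 1) in the HKR3 library minus that in the control. The median was -0.34 for 18 small core genes, 0.12 for 14 SR genes, 0.04 for 25 larger factors and -0.09 for 5 other LSM genes, beside -0.02 for all 10974 genes. Below 0 were 17 of 18 small core genes, 3 of 14 SR genes, 12 of 25 larger factors and 3 of 5 other LSM genes, beside 51.4% of all genes. No member reached 2-fold in either direction, beside 5.52% of all genes past 2-fold upwards and 2.52% downwards. At 1.5-fold, 4 members were lower (SNRPD2, SNRPE, LSM2 and SRSF5), beside 12.7% of all genes, and 2 were higher (SRSF11 and PRPF38B), beside 15.3%. The share of members past either fold was therefore below that of all genes, and the classes differed in the sign of small differences. In RNA from whole cultures, fewer cells of a kind and less RNA per cell cannot be told apart. The summed level of the 8 hepatocyte and hepatoma markers moved as well, at 13718, 9477 and 13226 FPKM. FGB was higher in the HKR3 library, at 234, 353 and 254 FPKM, and each other marker was lower there than in the control. The part of these markers in the differences of the members was not tested.

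**Figure D2:**
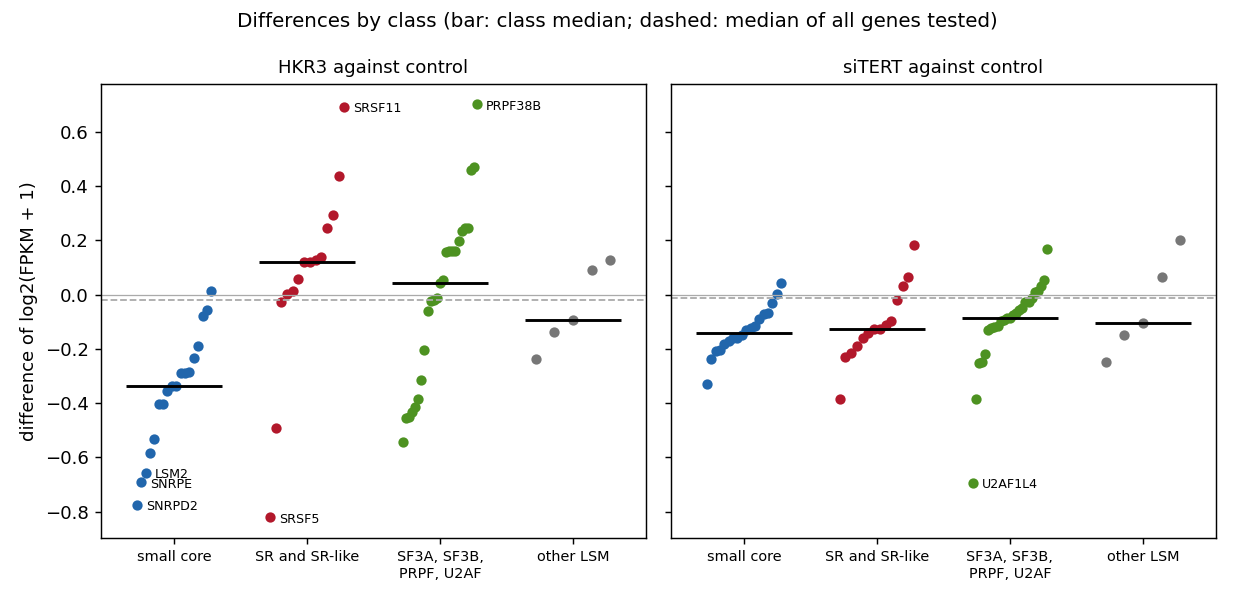
Difference of log2(FPKM + 1) from the control for each of the 62 members, in the HKR3 library (left) and the library labelled siTERT (right), grouped by class and sorted within it. Bars are class medians and the dashed line is the median of all 10974 genes. On the left the small core median is -0.34 and the SR median 0.12; on the right all class medians lie between -0.14 and -0.08.

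The Sm ring, the heptamer around each small nuclear RNA, had the lowest median of the groups of subunits. SNRPD2, which encodes the D2 subunit, was at 608, 355 and 544 FPKM. SNRPE, encoding subunit E, was at 151, 92.9 and 119.6 FPKM. SNRPD3, encoding D3, was at 221, 147 and 194 FPKM. In each of these genes the HKR3 library was the lowest and the control the highest. SNRPG was at 196, 148 and 174 FPKM, and SNRPB, which encodes subunits B and B', at 435, 339.6 and 389 FPKM. SNRPD1 was at 133, 105 and 125 FPKM, and SNRPF at 114, 96.7 and 96.5 FPKM. All 7 detected Sm genes were thus below the control in both other libraries, and SNRPF was the only one of them that was not lowest in the HKR3 library. The median log2 difference of the Sm ring in the HKR3 library was -0.40, with values from -0.77 for SNRPD2 to -0.24 for SNRPF. SNRPG and SNRPE share at least 25% of their sequence with other annotated genes, pseudogenes included, so their levels are less certain.

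The U6 ring of LSM2 to LSM8 showed the same sign, with 7 of 7 genes below 0 in the HKR3 library and a median of -0.34. LSM2 was at 85.1, 53.7 and 76.6 FPKM, a log2 difference of -0.66 in the HKR3 library. LSM8, the subunit that distinguishes the U6 ring from the decay ring with LSM1, was at 28.2, 19.2 and 24.3 FPKM. LSM6 was at 40.5, 30.4 and 36.9 FPKM. The other 4 were closer to the control: LSM4, LSM7, LSM5 and LSM3 had log2 differences of -0.34, -0.29, -0.28 and -0.19 in the HKR3 library. LSM1, which replaces LSM8 in the cytoplasmic ring for messenger RNA decay, was at 54.9, 58.5 and 57.5 FPKM, above the control in both. The other LSM genes outside U6, LSM10 of the U7 particle that processes histone transcripts, LSM12, and LSM14A and LSM14B of processing bodies, lay between -0.24 and 0.13.

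The remaining small core genes encode proteins of the U1 and U2 particles outside the rings. SNRPC of U1 was at 168, 137 and 154 FPKM, a log2 difference of -0.29. SNRPA of U1 was at 94.99, 96.0 and 87.7 FPKM, and was the only small core gene above 0 in the HKR3 library. SNRPA1 and SNRPB2 of U2 had differences of -0.08 and -0.06; SNRPA1 shares 54.3% of its sequence with other annotated genes. The median of these 4 genes was -0.07, close to that of all genes, where the Sm and U6 rings had -0.40 and -0.34.

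Among the SR genes, SRSF5, SRSF9, SRSF11 and the weakly expressed SRSF12 lay farthest from the control in the HKR3 library. SRSF5 had the lowest difference of all members, -0.82, at 154, 86.7 and 117 FPKM. SRSF9 was at 209, 148 and 179.8 FPKM, a difference of -0.49. SRSF11, which encodes an SR-related protein associated with U2AF, was at 34.7, 56.7 and 36.3 FPKM, a difference of 0.69. SRSF5 and SRSF9 were thus ordered control, siTERT label, HKR3 from high to low, and SRSF11 was high in the HKR3 library alone. TRA2B, an SR-like activator of exon inclusion, was at 129, 158 and 109.8 FPKM, a difference of 0.29, and its relative TRA2A was at 63.6, 64.1 and 56.7 FPKM. SRSF4 was at 39.3, 46.7 and 38.8 FPKM. The abundant SRSF1, SRSF2, SRSF3 and SRSF7 had differences of 0.12, 0.12, -0.03 and 0.00, and SRSF6, SRSF8 and SRSF10 of 0.14, 0.13 and 0.06. SRSF12 passed the minimum only by its mean, at 0.877, 1.54 and 1.13 FPKM, a difference of 0.44. Its ratio to the control was 1.76, with a 95% counting interval from 1.13 to 2.78. SRSF1 shares 86.6% of its sequence with the listed gene AC015813.2, which was at 4.31, 5.28 and 3.49 FPKM; the sums of both were 243, 265 and 247 FPKM.

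The larger factors divided within their complexes. Of the SF3B genes, SF3B4 was at 56.1, 78.0 and 55.6 FPKM, a log2 difference of 0.47. SF3B5, the shortest of these genes with 261 coding bases, was at 255, 186 and 247 FPKM, a difference of -0.45. SF3B6, next in length with 378 coding bases, encodes a subunit that contacts the branch point and was at 114, 128 and 108 FPKM. SF3B1, the largest subunit and a frequent target of mutation in leukaemia, was at 62.0, 69.5 and 60.8 FPKM, SF3B2 had a difference of 0.20 and SF3B3 of -0.31. Of the SF3A genes, SF3A1 was above the control at 0.25, SF3A3 below it at -0.45 and SF3A2 at -0.02. Subunits of one complex thus lay on both sides of 0.

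Among the PRPF genes the highly expressed ones were lower in the HKR3 library and several weakly expressed ones higher. PRPF19, a ubiquitin ligase that acts when the spliceosome is activated, was at 401, 275 and 370.2 FPKM, a difference of -0.54. PRPF8, the large U5 protein at the catalytic centre, was at 87.5, 65.5 and 73.5 FPKM. PRPF6 and PRPF31, which hold the U4/U6 and U5 particles together, had differences of -0.43 and -0.38. PRPF38B was at 14.7, 24.5 and 15.3 FPKM, a difference of 0.70 and the highest of all members. PRPF39, a U1-associated factor, was at 10.1, 14.3 and 10.4 FPKM. PRPF3, PRPF38A and PRPF18 had differences of 0.25, 0.23 and 0.16, and PRPF4 and the kinase gene PRPF4B of 0.04 and -0.02. PRPF18 shares 44.3% of its sequence with the listed gene AL157392.5.

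U2AF2, the large subunit of U2AF, was at 189, 164 and 162 FPKM. The small subunit U2AF1 was at 43.6, 48.8 and 33.2 FPKM. In units of 31 bases, 96.9% of it also occurs in U2AF1L5, which was at 111, 109.9 and 125 FPKM. Reads of these genes cannot be told apart, and their sum was 155, 159 and 158 FPKM. The log2 difference of U2AF1 in the library labelled siTERT was -0.38 alone and 0.03 for the sum. U2AF1L4, a paralog that shares 52.9% of its sequence with other annotated genes, was at 5.10, 4.85 and 2.77 FPKM, the single member at least 1.5-fold lower under the siTERT label, beside 1.24% of all genes; 0 members were at least 1.5-fold higher, beside 1.69%, and 0 passed 2-fold, beside 0.282% upwards and 0.2% downwards. With an estimated 14 fragments in the control, its ratio to the control of 0.543 had a 95% counting interval from 0.186 to 1.31, which includes 1. That estimate takes the shortest coding transcript of U2AF1L4, 263 bases, beside a median transcript of 738 bases. A longer transcript would give more fragments and a narrower interval.

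Counting error was smaller for the main members. From the FPKM worth of 1 fragment in weakly expressed genes, the libraries were estimated to hold 1.02e+07, 1.13e+07 and 1.14e+07 fragments, from 67 to 74 genes each. The 95% intervals given cover counting error only, assume the shortest coding transcript and say nothing of the spread between cultures. The ratio of the HKR3 library to the control was 0.584 for SNRPD2, with an interval from 0.547 to 0.623. For SNRPE it was 0.617, from 0.539 to 0.705. For SRSF5 it was 0.564, from 0.503 to 0.630. For SRSF11 it was 1.63, from 1.46 to 1.82, and for PRPF38B it was 1.67, from 1.42 to 1.96.

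Level and length moved with the class. The small core genes had a median coding length of 334.5 bases, the SR genes 804 bases and the larger factors 1515 bases, beside 1366.5 bases for all genes measured. Over all genes, the decile with the highest mean FPKM had a median difference of -0.26 in the HKR3 library, and genes with a coding length under 600 bases had -0.24, or -0.33 where their mean was also at least 50 FPKM. Of the 18 small core genes, 14 were shorter than 600 bases, with a median of -0.37. Set against genes of the same decile of mean FPKM, small core genes had a median of -0.09, with 14 of 18 below, SR genes 0.31, with 12 of 14 above, and the larger factors 0.13, with 16 of 25 above. SNRPD2, SNRPE, LSM2 and LSM8 were between 0.43 and 0.53 lower than genes of their decile, and SRSF5 was 0.56 lower. Small core genes thus lay closer to other genes of like level than to the median of all genes. The part of level and length in these differences was not tested. Across the 62 members, which share their libraries, Spearman's rho between the difference and coding length was 0.44, and with mean FPKM -0.44, beside 0.18 and -0.18 across 10936 genes. Within classes, rho with coding length was 0.41 for 18 small core genes, 0.63 for 14 SR genes and 0.01 for 25 larger factors. With mean FPKM it was -0.39, -0.55 and -0.44. The pooled values mix the classes, and their parts within and between classes were not separated.

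**Figure D3:**
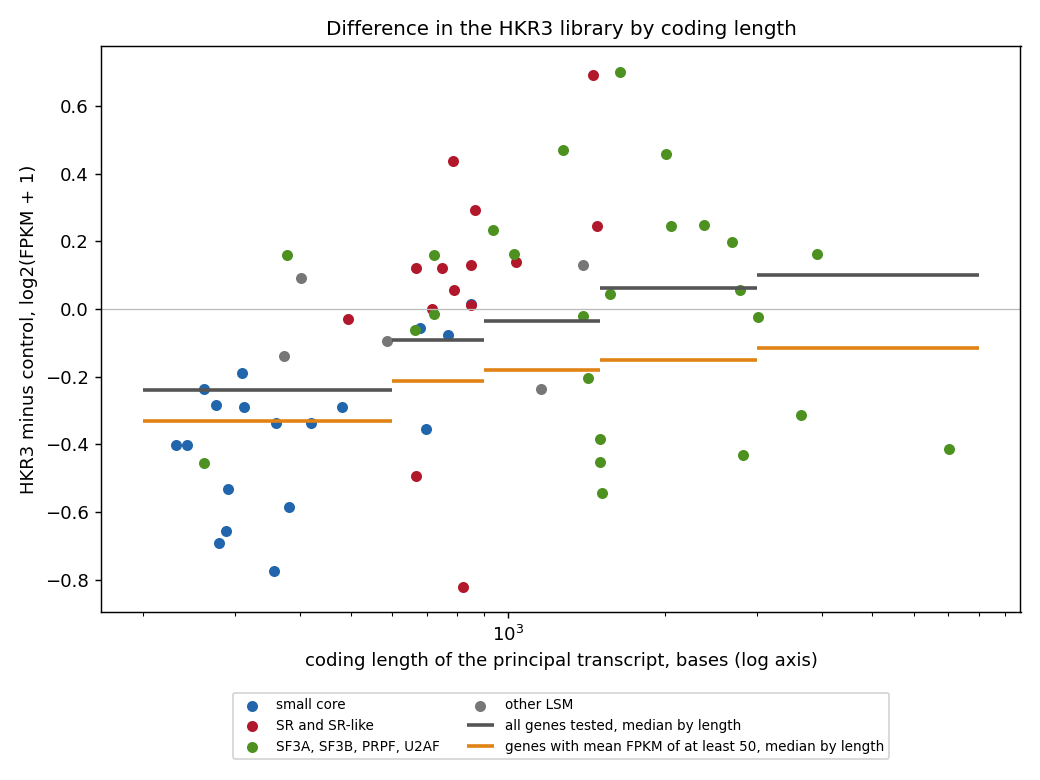
Difference of log2(FPKM + 1) between the HKR3 library and the control against coding length (log axis, bases) for 62 members, coloured by class. Grey lines are medians of all genes measured in 5 ranges of length, from -0.24 under 600 bases to 0.10 at 3000 bases or more, and orange lines those of genes averaging 50 FPKM or more, from -0.33 to -0.12; most SR genes lie above both.

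The choice of scale shifts all values together. The FPKM sums were 596536, 535516 and 579410. Scaling each library to the same sum raised the median of all genes in the HKR3 comparison by 0.14, to 0.12. On that scale small core genes had a median of -0.18 with 15 of 18 below 0, beside 41.1% of all genes. SR genes had 0.28 with 12 of 14 above 0 and the larger factors 0.20 with 17 of 25 above 0, beside 58.9% of all genes, a share that the larger factors lay near. The gap between the small core and SR medians was -0.46 on either scale. Scaling a library shifts both medians alike, apart from the pseudocount, so this gap could hardly change. All 7 genes of the Sm ring and all 7 of the U6 ring were below the control on that scale too, with medians of -0.25 and -0.18. Medians that turned positive were those of the U1 and U2 proteins at 0.09, U2AF at 0.11, SF3A at 0.13 and the LSM genes outside U6 at 0.06, so the sign of these groups depends on the scale.

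Under the siTERT label, with TERT no lower than in the control, the medians of all 4 classes were slightly negative and close to each other. The median difference was -0.14 for small core genes, -0.13 for SR genes, -0.08 for the larger factors and -0.11 for other LSM genes, beside -0.01 for all genes. Below 0 were 50 of 62 members, beside 52.6% of all genes. By class these were 16 of 18 small core genes, 11 of 14 SR genes, 20 of 25 larger factors and 3 of 5 other LSM genes. After scaling to the same sum, 15 of 18, 10 of 14 and 17 of 25 of the first 3 classes were below 0, beside 44.2% of all genes on that scale, with medians of -0.10, -0.09 and -0.04 beside 0.03 for all genes. The lowest was U2AF1L4 at -0.69, estimated from few fragments. Leaving it out, and U2AF1 and U2AF1L5, whose split is uncertain, the lowest were SRSF5 at -0.39 and SNRPE at -0.33. The ratios of SRSF5 and SNRPE to the control, 0.764 and 0.794, had counting intervals from 0.690 to 0.846 and from 0.702 to 0.900. The highest were LSM10 at 0.20 and SRSF12 at 0.18, the latter below 1 FPKM in the control. Their ratios, 1.15 and 1.29, had counting intervals from 1.01 to 1.32 and from 0.802 to 2.09, the second of which includes 1. Below the control in both libraries were 15 of 18 small core genes, 3 of 14 SR genes and 9 of 25 larger factors, beside 35.1% of all genes; both comparisons use the same control library.

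The HKR3 library was also set directly against the library labelled siTERT. Here 15 of 18 small core genes were lower in the HKR3 library, beside 50.5% of all genes, with a median difference of -0.24. Set against genes of the same decile of mean FPKM, the small core median was -0.042, with 11 of 18 below and 7 above. Higher in the HKR3 library were 12 of 14 SR genes and 16 of 25 larger factors, beside 49.4% of all genes, with medians of 0.21 and 0.18. At least 1.5-fold higher in the HKR3 library were 3 members (PRPF38B, U2AF1L4 and SRSF11), beside 12.9% of all genes, and at least 1.5-fold lower was SNRPD2 alone, beside 9.71%; 0 members passed 2-fold, beside 4.11% upwards and 1.38% downwards. For U2AF1L4 the ratio of 1.75 had a counting interval from 0.692 to 4.86, which includes 1 and rests on the same short transcript. TRA2B stood 0.52 higher in the HKR3 library, SRSF2 0.31 higher and SRSF11 0.63 higher, whereas SNRPD2 had a difference of -0.62. From highest to lowest, 13 of 18 small core genes had the order control, siTERT label, HKR3, beside 28.5% of all genes, and 8 of 14 SR genes the order HKR3, control, siTERT label, beside 17.5%.

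Other genes of the pathway were taken from 5 lists. The lists were chosen with earlier results of these data known, so their counts and medians are description only. The list of kinases that phosphorylate SR proteins had 3 of 6 measured genes at least 2-fold higher, beside 5.52% of all genes, and a median of 0.79. CLK1, a dual-specificity kinase of SR proteins, was at 10.4, 54.9 and 9.67 FPKM. CLK4 was at 1.97, 6.07 and 2.19 FPKM, and CLK3 at 15.6, 38.1 and 17.5 FPKM. All 3 were high in the HKR3 library alone. SRPK2, which phosphorylates SR proteins in the cytoplasm, had a difference of 0.35; CLK2 and SRPK1 were below 0, at -0.09 and -0.12. After scaling to the same sum all 6 genes were above 0, beside 58.9% of all genes; that scaling raised the median of all genes by 0.14.

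The list of SR-related proteins of nuclear speckles, the bodies in which splicing factors are stored, had 13 of 13 genes above the control after HKR3, beside 48.6% of all genes, and a median of 0.50. PNN, encoding pinin, was at 34.3, 140.3 and 73.6 FPKM, more than 2-fold above the control in both. RBM39, SCAF11 and LUC7L3 had differences of 0.90, 0.67 and 0.65. In the library labelled siTERT 11 of 13 were above 0, with a median of 0.06, beside 47.4% of all genes.

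The remaining lists had medians closer to that of all genes, which was -0.02. Of 46 other spliceosome proteins, 29 were above the control after HKR3, beside 48.6% of all genes, with a median of 0.08. At 1.5-fold, 8 were higher and 3 lower, beside 15.3% and 12.7% of all genes. SLU7, which acts in the second step of splicing, was at 9.67, 20.7 and 12.8 FPKM, CWC22 had a difference of 0.88 and ZRSR2, which recognises introns of the minor spliceosome, of 0.84. SNRNP25, a protein of the minor U11/U12 particle, was at 43.6, 23.6 and 37.9 FPKM. The list of Sm ring assembly factors, which load the ring onto small nuclear RNAs, had 7 of 14 genes above 0, beside 48.6% of all genes. Its median was -0.03. DDX20 and SMN2 had differences of 0.71 and 0.61, WDR77 and GEMIN4 of -0.50 each; SMN2 and SMN1 are near-identical copies, so their split is uncertain. The hnRNP list, RNA-binding proteins that often oppose SR proteins, had 14 of 24 genes below 0, beside 51.4% of all genes, and a median of -0.02. HNRNPA2B1 was at 735, 465 and 588 FPKM, HNRNPA3 and HNRNPA1 had differences of -0.59 and -0.42, and HNRNPU of 0.38. After scaling to the same sum, the assembly and hnRNP medians turned positive, at 0.11 and 0.14, beside 0.12 for all genes. The other spliceosome proteins then had a median of 0.23, with 33 of 46 above 0, beside 58.9% of all genes.

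**Figure D4:**
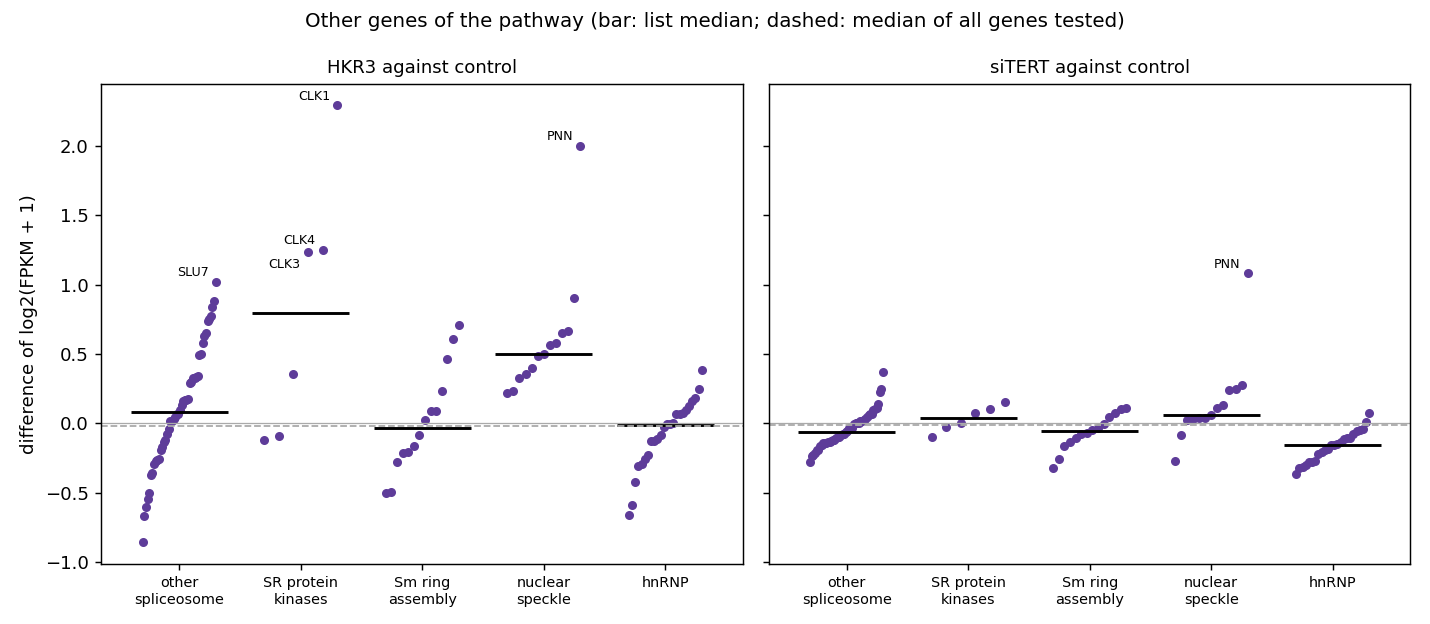
Difference of log2(FPKM + 1) from the control for genes of 5 other lists of the pathway in the HKR3 library (left) and the library labelled siTERT (right); bars are list medians and the dashed line the median of all 10974 genes. CLK1, CLK3, CLK4, PNN and SLU7 lie at least 1 above the control on the left, and PNN alone on the right.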

How the data were processed

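The deposited table gives FPKM per gene for 3 libraries of Hep3B cells, calculated by the authors. Tools named, per the submitters' processing notes, are Cuffdiff 2.2.1, Cufflinks and STAR 2.5.0, on build hg19, without their settings or any scaling between libraries. Libraries, per the labels' protocols, came from a stranded TruSeq kit for messenger RNA. Of 19869 identifiers, 19119 got a symbol from a gene name table and 254, U2AF1L5 among them, from GENCODE v29. A gene was kept if its mean reached 1 FPKM, which gave 62 of 65 members. Differences were taken on log2(FPKM + 1), which understates those of weak genes. Coding lengths and shared sequence came from GENCODE v29, which is built on GRCh38. Fragments were estimated from genes with 1 transcript of at least 1000 bases, taking values up to 25% from 1 fragment; with any further scaling by the authors these would be scaled sizes. Counting intervals are exact (Clopper-Pearson, scipy 1.17.1). Any other member could be named, and up to 4 genes of each other list with the largest absolute difference in the HKR3 library; CLK2, SRPK1, SMN1, SNURF, AL157392.5 and AC015813.2 were named outside this rule. Members and lists were chosen with earlier results of these data known. The calculation was tested on simulated data with fold changes larger than that of any member. Changes as small as those of the members were not simulated. Alternatives were other pseudocounts, other minimums, other scalings and leaving out members that share their sequence. Protein sequences were not used here. The values of 1 member are not reported here by name; it is included in counts and medians.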

Additional observations from a re-analysis of the deposited data

How the results depend on the processing

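Medians of classes were recomputed with pseudocounts of 0.1 and 5 FPKM, without a minimum or with one of 5 FPKM, scaled to the same sum, centred on all genes or on genes of the same decile of mean FPKM, and without the members that share at least 50% of their sequence with a listed gene. Of 104 values, 94 kept their sign and moved by at most 0.1. Gaps between classes, counted among them, could hardly move when a library was rescaled or centred on all genes. The limit of 0.1 is larger than some of the medians judged by it. The HKR3 median of the larger factors, 0.04, became 0.13 when centred on genes of the same decile and still counts among the 94. Scaled to the same sum, the HKR3 medians were -0.18 for small core genes, 0.28 for SR genes, 0.20 for the larger factors and 0.11 for all members (from -0.04, a turned sign), and 0.13 for all members against the library labelled siTERT. Centred on genes of the same decile, they were -0.087, 0.31 and, for all members, 0.045 (a turned sign) and 0.13 against the siTERT label; the gap between small core genes and larger factors was -0.21. No paired analysis was possible because each group holds 1 library, and for the same reason no library could be left out.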

Other observations

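Genes of hnRNP proteins were below the control in 22 of 24 cases under the siTERT label, in which TERT was no lower, with a median of -0.16, beside 52.6% of all genes below 0. In the HKR3 library 14 of 24 were below the control, beside 51.4%. The lowest differences were -0.37 under the siTERT label and -0.66 in the HKR3 library, where HNRNPA2B1 and HNRNPA3 were at least 1.5-fold lower. After scaling to the same sum, 22 of 24 were below the control under the siTERT label, beside 44.2% of all genes, and 7 of 24 in the HKR3 library, beside 41.1%. The comparisons share the control, and the difference between them was not tested.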
